A study of Homo sapiens with 36 samples.

Results

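EHEB is a lymphoid cell line of B-cell leukaemic origin with wild-type p53, and its libraries treated with idelalisib were set against its libraries treated with ibrutinib to see which genes separate inhibition of the lipid kinase PI3K from inhibition of the tyrosine kinase BTK. The members are every library labelled EHEB with 10 µM idelalisib (3) and every library labelled EHEB with 5 µM ibrutinib (3), 6 of the 36 libraries of the series. All were harvested after 96 h. The labels number these 6 libraries close together, whereas the 3 EHEB libraries exposed to the vehicle DMSO carry numbers well apart from them. The labels do not say whether these numbers mark a batch. Values of a group are given in the order of these numbers, and libraries are called the first to the third of a group by it. The 3 DMSO libraries and 3 EHEB libraries given 50 µM fludarabine, also for 96 h, shared the fit and its filter on low counts. Idelalisib and ibrutinib were also given to the lines JVM2 for 72 h and MEC1 for 48 h at the same doses, and EHEB, JVM2 and MEC1 share no library. Because each drug was used at its own single dose, a difference between drugs cannot be told apart from a difference in how strongly each target was inhibited. The labels speak of triplicates and not of separate cultures, and the study's methods mention independent experiments in general without naming these libraries, so p values measure the spread between these libraries, which may be technical.

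Ibrutinib binds covalently to a cysteine of BTK, the kinase that links the B-cell receptor (BCR) to phospholipase C, calcium and NF-κB. Idelalisib occupies the ATP site of the delta isoform of PI3K, the kinase that makes the lipid messenger recruiting both BTK and AKT to the membrane. AKT in turn keeps the FOXO transcription factors out of the nucleus and feeds mTOR, glycolysis and the cell cycle, so PI3K stands above several branches of which BTK is one.

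The deposited values were estimated read counts per gene, expressed here as CPM, each gene's counts scaled to a common library total after TMM normalisation. The ibrutinib libraries held between 31419639 and 44996366 counts and the idelalisib libraries between 28229719 and 44698583. Mitochondrially encoded genes took 1.67–2.31% of counts with ibrutinib and 1.45–2.05% with idelalisib, ranges that overlapped. The first principal component of these 6 libraries carried 40.7% of the variance and placed all ibrutinib libraries on one side and all idelalisib libraries on the other. Within groups, the chi-square of the counts of a pair of libraries, divided by the degrees of freedom, was 30.9–53.6 for ibrutinib and 27.2–31.0 for idelalisib, a measure that grows with depth. No pair of libraries was alike within sampling noise. The 11 B-cell markers tested summed to 6203–7317 CPM with ibrutinib and 5252–6109 CPM with idelalisib, with 1 marker called higher and 3 called lower with idelalisib. The erythroid list had no member above the filter on low counts, and T-cell, natural killer, monocyte and epithelial or fibroblast lists summed to at most 119 CPM in any ibrutinib or idelalisib library. T-cell markers (9 of 13 tested) summed to 66.2–71.4 CPM with ibrutinib and 74.9–82.4 CPM with idelalisib, and epithelial and fibroblast markers (6 of 11 tested) to 24.7–26.3 and 27.8–33.9 CPM. Monocyte markers (7 of 10 tested) summed to 109–119 CPM with ibrutinib and 98.3–107 CPM with idelalisib. The B-cell, T-cell, monocyte and epithelial sums therefore differed without overlap, and their part in the results was not tested. Most of the B-cell sum was CD74, at 4129–5018 CPM with ibrutinib and 2983–3766 CPM with idelalisib. The median log2 fold change of the 11 B-cell markers, idelalisib minus ibrutinib, was 0.003, and 6 of them had a positive value.

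Genes of cell division separated the drugs most clearly. With idelalisib, the messengers for replication origin firing, mitotic spindle proteins, replication-dependent histones and homologous recombination were mostly lower than with ibrutinib, many by more than 2-fold. Messengers for nucleotide synthesis, ribosome assembly and glycolysis were lower as well, by smaller margins. Genes higher with idelalisib included FOXO targets such as IRS2 and TXNIP, the immediate early gene JUN, the kinase genes PIM1 and PIM2 and several immunoglobulin constant genes. In all, 2815 of 17748 genes tested differed between the drugs at an adjusted p under 0.05 (15.9%; edgeR quasi-likelihood test with Benjamini-Hochberg adjustment). Of these, 1202 were higher with idelalisib (6.77%) and 1613 were higher with ibrutinib (9.09%). Differences of at least 2-fold were held by 428 genes, of which 242 were higher with ibrutinib (1.36%) and the rest higher with idelalisib (1.05%). The median log2 fold change over all genes tested was −0.00034, a value that TMM scaling holds near 0, so a shift shared by most genes could not be seen. The ibrutinib and idelalisib libraries did not overlap in CPM for 5880 genes (33.1%). Below, "called" means past this threshold, and every log2 fold change is idelalisib minus ibrutinib unless stated.

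**Figure D1:**
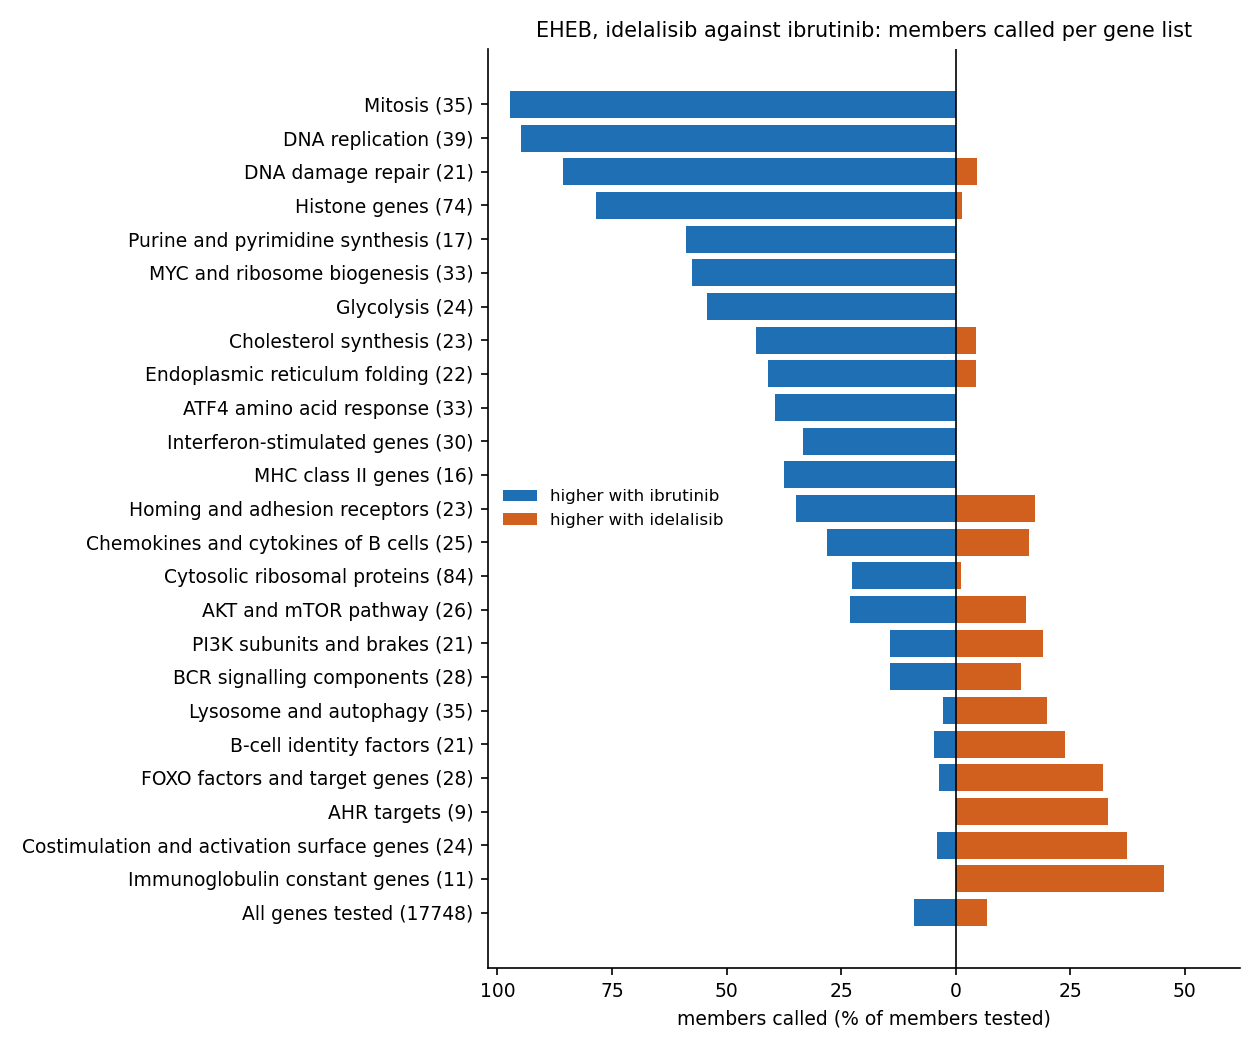
Share of the tested members of each gene list that were called higher with ibrutinib (bars to the left) or higher with idelalisib (bars to the right) in EHEB, in percent, with the number of members tested in parentheses. Mitosis, DNA replication, DNA repair and histone genes extend far to the left of the bottom bar, which gives the 9.09% and 6.77% of all genes, and FOXO, AHR, costimulation and immunoglobulin genes extend to the right.

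Mitotic genes were the most uniform group. All 35 listed genes were tested, 34 were called higher with ibrutinib, 28 of them by at least 2-fold, and none was called higher with idelalisib. Their median log2 fold change was −1.37, with values from −1.91 to −0.50. BIRC5, the survivin gene, was the only member not called (−0.85), and it is named here after its values were seen. CDC20, which activates the anaphase-promoting complex, stood at 21.9, 18.9 and 22.9 CPM in the ibrutinib libraries and at 5.78, 5.76 and 6.04 CPM in the idelalisib libraries, against 28.5, 27.7 and 27.6 CPM with DMSO. The idelalisib values lay close together and far under every other library, a log2 fold change of −1.86 ± 0.09 (SE; adjusted p = 1.4e-06). DLGAP5, a microtubule-binding spindle protein, fell in the same manner from 31.0, 25.8 and 27.2 CPM with ibrutinib to 6.69, 8.60 and 7.05 CPM with idelalisib (−1.91 ± 0.11, adjusted p = 2.7e-06). KIF20A and KIF23, kinesins needed for cytokinesis, had values of −1.81 ± 0.16 and −1.71 ± 0.18. CDK1, the kinase that drives entry into mitosis, was at 19.6, 21.8 and 20.4 CPM with ibrutinib and at 7.79, 5.92 and 5.75 CPM with idelalisib (−1.67 ± 0.12, adjusted p = 7.4e-06). SKA1, a spindle and kinetochore protein outside the list, was also higher with ibrutinib (−1.85 ± 0.35), although the third ibrutinib library (4.66 CPM) was well under the other two (8.65 and 8.17 CPM).

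DNA replication genes moved with them. Of 39 genes, 37 were called higher with ibrutinib, 14 by at least 2-fold, and none was called higher with idelalisib (median −0.88). CDC6, which loads the MCM helicase at origins, showed the largest fold change of the list. It was at 17.4, 13.7 and 13.6 CPM with ibrutinib, a range that took in the DMSO mean of 15.5 CPM, and at 3.03, 3.43 and 4.004 CPM with idelalisib (−2.09 ± 0.15, adjusted p = 1.1e-05). CDC45, a part of the active helicase, stood at 6.27, 5.67 and 6.58 CPM with ibrutinib and 1.16, 1.53 and 1.78 CPM with idelalisib (−2.04 ± 0.16). UHRF1, which carries DNA methylation through replication, was lower by a log2 value of −1.90 ± 0.20, the initiation factor MCM10 by −1.84 ± 0.17 and the origin recognition subunit ORC1 by −1.64 ± 0.13. The members not called were GINS4 at −1.65 and RPA2 at −0.06, again named after their values were seen.

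The repair list, made up largely of homologous recombination and checkpoint genes, had 18 of 21 members higher with ibrutinib (median −0.50). EXO1, the nuclease that resects DNA ends, was at 12.9, 10.9 and 12.2 CPM with ibrutinib and 3.73, 3.75 and 2.86 CPM with idelalisib (−1.80 ± 0.12, adjusted p = 6.2e-06). RAD54L (−1.43 ± 0.22), a motor protein of homologous recombination, and the checkpoint kinase gene CHEK1 (−1.08 ± 0.20) were also lower with idelalisib. ATM, the apical damage kinase, was the single repair gene called higher with idelalisib (0.46), and was picked out after its value was seen.

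Histone genes completed the pattern. Of 89 listed genes of the HIST clusters, 74 passed the filter on low counts, and 58 of these were called higher with ibrutinib, 31 by at least 2-fold, with a median of −0.97. The linker histone gene HIST1H1B was at 54.9, 53.8 and 63.2 CPM with ibrutinib and at 16.4, 16.9 and 13.9 CPM with idelalisib, against 97.9, 99.8 and 97.4 CPM with DMSO. Each step from DMSO to ibrutinib to idelalisib thus left no overlap, and the log2 fold change between the drugs was −1.86 ± 0.10 (adjusted p = 2.2e-06). HIST1H2BL (−1.94 ± 0.09), HIST1H3B (−1.84 ± 0.09) and HIST1H3G (−1.82 ± 0.10) had values of the same size. The single histone entry called higher with idelalisib was the pseudogene HIST1H4PS1, which stayed at or under 0.458 CPM in every DMSO, ibrutinib and idelalisib library. Replication-dependent histone messengers mostly lack a poly(A) tail, and these libraries were depleted of ribosomal RNA and not selected for poly(A). Histone genes of one class are close copies, and how the authors' counting divided reads among them is not given in the sources used here, so single members are less certain than the group.

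**Figure D2:**
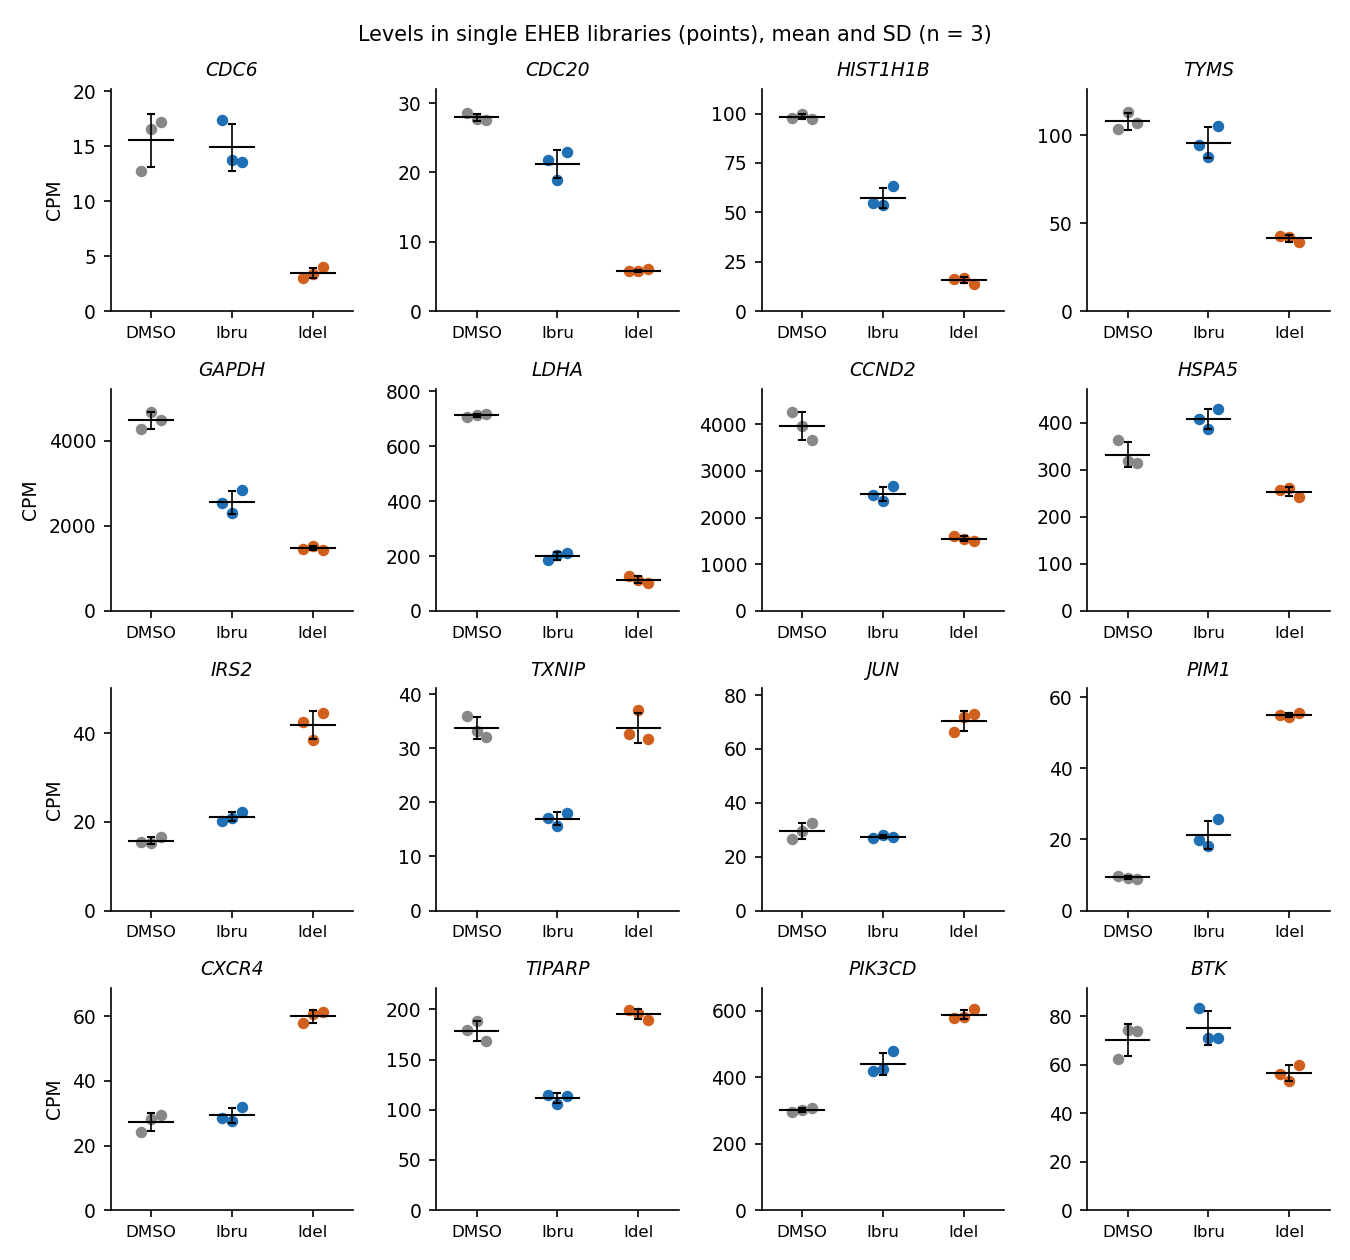
Level of 16 genes in CPM (each axis from 0) in single EHEB libraries treated with DMSO (grey), ibrutinib (blue) or idelalisib (orange), with the mean and SD of 3 libraries. CDC6 and TYMS with ibrutinib lay near DMSO and dropped with idelalisib, HIST1H1B and CCND2 dropped in steps, and IRS2, PIM1 and PIK3CD rose in steps.

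Set against DMSO, the drugs differed in how far these groups moved. Both contrasts use the same 3 DMSO libraries, whose numbers lie well apart from those of the drug libraries, so their values are only placed side by side. For mitotic genes the median log2 change from DMSO was −0.45 with ibrutinib and −1.80 with idelalisib, and 19 and 35 of 35 genes were called lower. For replication genes it was −0.11 and −1.02, with 5 and 37 of 39 called lower. Over all genes tested, 19.7% with ibrutinib and 33.3% with idelalisib were called against DMSO in either direction. The repair medians were −0.08 and −0.60, and the histone medians −0.56 and −1.55. With ibrutinib the replication and repair genes therefore stood near the vehicle while the histone and mitotic genes were already reduced.

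Short stretches of the promoters of these genes are shown because the groups that moved together hold known cell cycle elements at other rates than promoters at large. The sequences are RefSeq bases of GRCh38.p14, 5′ to 3′ on the strand of the gene, 60 bases each, all upstream of the start site. Promoters were matched by symbol for 12435 of the 17748 genes tested, and motifs were searched on both strands in the 250 bases before the start. The pair shown for each motif are the called list members of largest fold change that hold it outside any annotated part of the gene, and E2F2, TYMS, HIST1H2BO and HIST1H2BH are named for this reason alone. Capitals mark the motif. In mitotic genes this is the cell cycle homology region (CHR, TTTGAA or TTCGAA), an element bound by the MuvB complex, shown for DLGAP5 (chr14:55191662-55191721, minus strand) and CDC20 (chr1:43358889-43358948, plus strand).
DLGAP5: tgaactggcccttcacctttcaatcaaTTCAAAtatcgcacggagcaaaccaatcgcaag
CDC20: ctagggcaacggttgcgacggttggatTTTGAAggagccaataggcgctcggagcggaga
In replication genes it is the E2F element (TTTCCCGC, TTTCGCGC, TTTGCCGC or TTTGGCGC), shown for E2F2 (chr1:23531242-23531301, minus strand) and TYMS (chr18:657588-657647, plus strand).
E2F2: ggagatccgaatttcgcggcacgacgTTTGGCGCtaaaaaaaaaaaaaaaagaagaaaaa
TYMS: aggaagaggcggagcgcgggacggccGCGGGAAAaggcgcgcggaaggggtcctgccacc
In histone H2B genes it is the octamer (ATTTGCAT) read by OCT1, shown for HIST1H2BO (chr6:27893250-27893309, plus strand) and HIST1H2BH (chr6:26251539-26251598, plus strand), whose current symbols are H2BC17 and H2BC9.
HIST1H2BO: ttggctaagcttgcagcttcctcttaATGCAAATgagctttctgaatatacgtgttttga
HIST1H2BH: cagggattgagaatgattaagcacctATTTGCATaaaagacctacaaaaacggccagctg

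The CHR letters were present in 15 of 29 mitotic promoters (51.7%), against 10.7% of all 12435 promoters and 2 of 33 replication promoters. The E2F letters were present in 15 of 33 replication promoters (45.5%), against 4.13% of all promoters and 2 of 29 mitotic promoters. The octamer was present in 8 of 12 H2B promoters (66.7%), against 1.58% of all. Histone promoters also held the CHR letters in 19 of 54 (35.2%) and the E2F letters in 11 of 54 (20.4%), so these elements were not each limited to a single group. The CCAAT box, which can be seen beside the CHR of CDC20 as ccaat, was present in 23 of 29 mitotic promoters and 45 of 54 histone promoters, against 35.1% of all. These shares describe the letters in the window, and binding was not measured. The genes shown from each promoter set were lower with idelalisib: E2F2 encodes an S-phase transcription factor and fell by 1.33 ± 0.13 on the log2 scale. TYMS, which makes thymidylate, was at 94.6, 87.9 and 105 CPM with ibrutinib and 43.0, 42.1 and 39.3 CPM with idelalisib (−1.21 ± 0.07). HIST1H2BO (−1.53 ± 0.08) and HIST1H2BH (−1.20 ± 0.06) completed the set.

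The G1 machinery moved less, and both ways. Of 16 cyclins and CDK inhibitors, 3 were called higher with ibrutinib and 1 higher with idelalisib (median 0.07). CCND2, the D-type cyclin that these cells express most, was at 2485, 2364 and 2673 CPM with ibrutinib and 1607, 1547 and 1487 CPM with idelalisib, against a DMSO mean of 3960 CPM (−0.70 ± 0.07, adjusted p = 8.7e-05). CDK4 (−0.62 ± 0.06) and CDK2 (−0.52 ± 0.11), the kinases of the G1 phase and of the S-phase entry, were lower with idelalisib. CDKN1B, the CDK inhibitor p27 and a FOXO target, was at 49.6, 49.0 and 48.7 CPM with ibrutinib and 72.5, 72.5 and 69.2 CPM with idelalisib (0.54 ± 0.05, adjusted p = 3.9e-05).

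Biosynthetic genes followed the direction of the cell cycle at smaller sizes. In the MYC and ribosome biogenesis list 19 of 33 genes were higher with ibrutinib and none was higher with idelalisib (median −0.29). These included NME1, a nucleoside diphosphate kinase (−0.86 ± 0.14), the nucleolar factor NOP16 (−0.62 ± 0.10) and the spermidine synthase gene SRM (−0.60 ± 0.12), whereas MYC itself was not called (−0.28). De novo purine and pyrimidine synthesis had 10 of 17 genes higher with ibrutinib (median −0.28). PAICS, a bifunctional purine enzyme, ranged from 166 to 174 CPM with ibrutinib and stood at 66.9, 104 and 99.9 CPM with idelalisib (−0.91 ± 0.20, adjusted p = 0.0096), so its idelalisib libraries disagreed among themselves by more than the ibrutinib ones. CAD, which starts pyrimidine synthesis, was at −0.47 ± 0.06, with means of 162 CPM with ibrutinib, 117 CPM with idelalisib and 123 CPM with DMSO. Of 84 cytosolic ribosomal protein genes, 19 were higher with ibrutinib and 1 higher with idelalisib (median −0.14). The 19 became 8 without the third idelalisib library, 12 without the first, and 9 with the 6 libraries alone. RPL22L1, a paralogue of RPL22, stood out at 34.5, 38.9 and 34.4 CPM with ibrutinib against 12.3, 12.7 and 11.7 CPM with idelalisib (−1.55 ± 0.13). Tubulin and actin genes were part of this picture: TUBB stood at −0.95 ± 0.07 and the actin-binding CORO1A at −0.74 ± 0.06, and 9 of 25 cytoskeletal genes were higher with ibrutinib and 1 with idelalisib.

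Glycolytic genes were mostly lower than DMSO with both drugs, 20 of 24 called with ibrutinib and 22 with idelalisib. The shares of all genes called against DMSO, in either direction, were 19.7% and 33.3%. Between the drugs, 13 of 24 genes were called higher with ibrutinib and none higher with idelalisib (median −0.32). GAPDH was at 2536, 2297 and 2833 CPM with ibrutinib and 1451, 1519 and 1433 CPM with idelalisib, against a DMSO mean of 4475 CPM (−0.80 ± 0.07, adjusted p = 3.1e-05). LDHA, which turns pyruvate into lactate, was at 184.5, 203 and 213 CPM with ibrutinib and 126, 113 and 101 CPM with idelalisib, against a DMSO mean of 714 CPM (−0.82 ± 0.07). TPI1 (−0.92 ± 0.15) and PKM (−0.65 ± 0.15), further enzymes of the pathway, were also lower. The glucose transporter gene SLC2A1 (0.34) and the lactate exporter gene SLC16A3 (0.41) were not called. The hypoxia list was not shared with this direction as a whole: 2 of 16 genes were higher with idelalisib and 1, VEGFA, was higher with ibrutinib (−0.92 ± 0.23, adjusted p = 0.022).

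Calls among protein folding and stress genes lay mostly on the side of ibrutinib and covered less than the full lists. In the endoplasmic reticulum list 9 of 22 were higher with ibrutinib and 1 higher with idelalisib. HSPA5, the chaperone BiP, was at 407, 386 and 428 CPM with ibrutinib and 256, 262 and 242 CPM with idelalisib, and the DMSO mean of 332 CPM lay between them (−0.68 ± 0.06, adjusted p = 4.0e-05). MANF (−0.61 ± 0.09) and CALR (−0.69 ± 0.13), a secreted stress factor and a lectin chaperone, had the same sign. The stress sensor genes named here went the other way. ERN1, the kinase IRE1, was at 29.9, 29.3 and 25.6 CPM with ibrutinib and 46.3, 48.7 and 49.0 CPM with idelalisib (0.76 ± 0.08). EIF2AK3, the kinase PERK and not a member of this list, had a log2 fold change of 1.02 ± 0.14. In the ATF4 list 13 of 33 genes were higher with ibrutinib and none with idelalisib, led by PSAT1 (−1.23 ± 0.15), a serine synthesis enzyme, and DDIT4 (−1.11 ± 0.09), an mTOR inhibitor that also belongs to the AKT list. The heat shock list had 6 of 14 and the NRF2 list 7 of 20 higher with ibrutinib, the latter count being 3 without the third ibrutinib library and 4 without the first ibrutinib or the second or the third idelalisib library. Cholesterol synthesis had 10 of 23 higher with ibrutinib and 1 higher with idelalisib, LSS (0.48 ± 0.07). The former count was 5 without the first ibrutinib library or without the filter on low counts, and 6 without the third ibrutinib or the second or the third idelalisib library. The stearoyl desaturase gene SCD fell from 82.7, 80.2 and 88.9 CPM with ibrutinib to 52.1, 53.9 and 49.0 CPM with idelalisib (−0.70 ± 0.06). The p53 list had 8 of 25 higher with ibrutinib, led by TRIAP1 (−0.62 ± 0.05) and TIGAR (−0.60 ± 0.08), and 1 higher with idelalisib, TP53INP1 (0.52 ± 0.05), while CDKN1A was not called (−0.64).

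**Figure D3:**
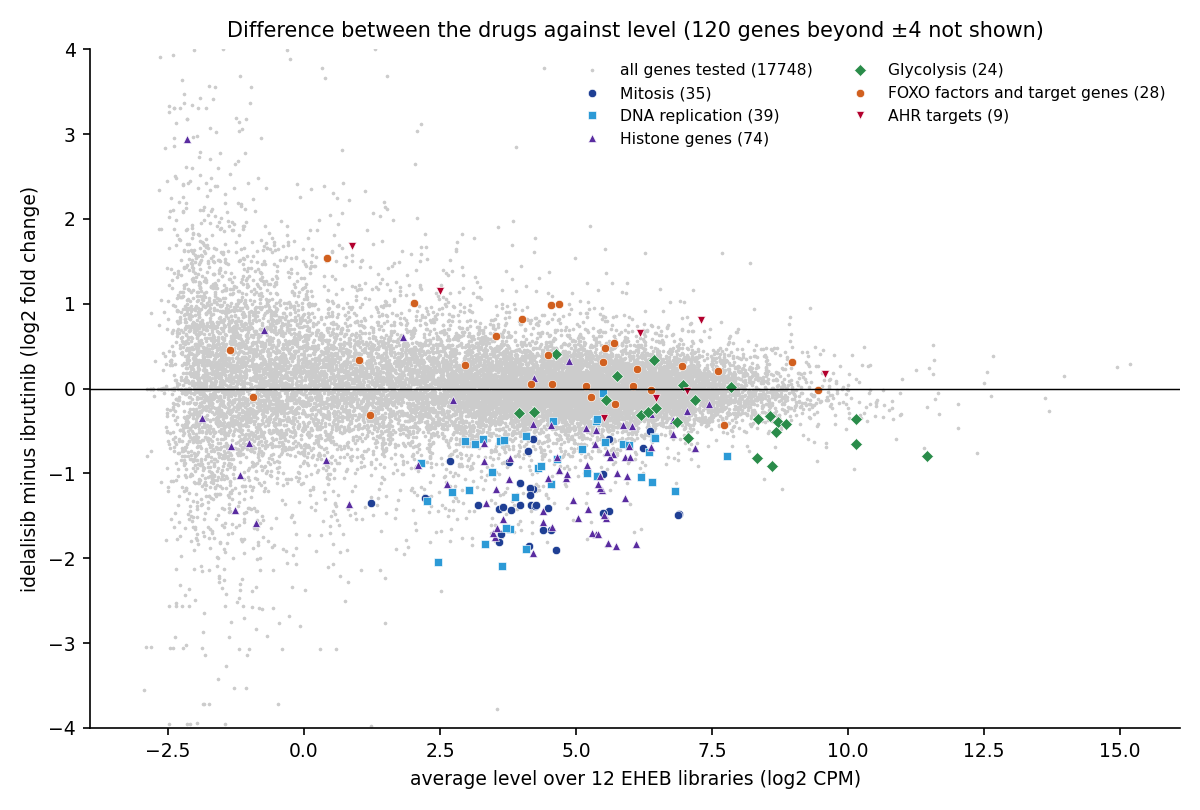
Log2 fold change, idelalisib minus ibrutinib, against the average level of each gene in log2 CPM over 12 EHEB libraries, with 6 gene lists in colour on all genes tested in grey. Most mitosis, replication and histone genes lie between about −2 and 0 at middle levels, with 5 histone genes above 0, the highest at 2.94. Most glycolysis genes lie below 0 at high levels, and FOXO and AHR genes reach upwards. The 120 genes beyond 4 log2 units in either direction, 1 of them an AHR target that was not called, are not drawn.

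FOXO targets were among the groups with more calls in the opposite direction. Of 30 genes, 28 were tested, 9 were called higher with idelalisib and 1 higher with ibrutinib (median 0.27). IRS2, an adaptor of insulin signalling that FOXO factors switch on when PI3K is low, was at 20.3, 20.8 and 22.3 CPM with ibrutinib and at 42.6, 38.4 and 44.4 CPM with idelalisib, against 15.4, 15.2 and 16.6 CPM with DMSO. Both drugs thus lay above the vehicle, and idelalisib lay above ibrutinib by 0.98 ± 0.08 (adjusted p = 1.9e-05). TXNIP, an inhibitor of thioredoxin and glucose uptake, gave a different order, with 17.2, 15.7 and 17.99 CPM under ibrutinib and 32.6, 36.98 and 31.7 CPM under idelalisib around a DMSO mean of 33.7 CPM (0.99 ± 0.09). KLF2, a quiescence and homing factor, was low but separated at 3.84–4.24 CPM with ibrutinib and 7.78–8.49 CPM with idelalisib (1.01 ± 0.18). FOXO4 rose by 0.82 ± 0.10, whereas FOXO1 was the list member called higher with ibrutinib (−0.43), named after its value was seen. BCL6, the germinal centre repressor, was called at 1.54 ± 0.28 from no more than 0.829 CPM in any idelalisib library. Its means were 0.75 CPM with DMSO, 0.23 CPM with ibrutinib and 0.67 CPM with idelalisib. FOXO3 could not be judged, because its libraries ran from 50.8 to 147 CPM with ibrutinib and from 51.7 to 184.1 CPM with idelalisib.

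The genes of the target pathways themselves moved modestly. BTK was at 83.3, 71.1 and 70.9 CPM with ibrutinib and 56.3, 53.4 and 59.99 CPM with idelalisib, a log2 fold change of −0.41 ± 0.09 (adjusted p = 0.0087) with no overlap between drugs. PIK3CD, which encodes the isoform that idelalisib inhibits, was at 419, 424 and 478 CPM with ibrutinib and 579, 581 and 604 CPM with idelalisib, against 296, 302 and 306 CPM with DMSO (0.42 ± 0.06, adjusted p = 0.00097). Each step from DMSO to ibrutinib to idelalisib again left no overlap. PIK3CA, the alpha isoform, rose in a similar manner from 159–161 CPM to 227–251 CPM (0.56 ± 0.06, adjusted p = 9.1e-05), and PIK3R5, a regulatory subunit of the gamma isoform, had the largest value of the PI3K list at 0.83 ± 0.13. PIK3CB (0.04 ± 0.08, adjusted p = 0.83) and PIK3CG (0.26 ± 0.11, adjusted p = 0.14) did not pass the test. In all 4 of 21 PI3K subunits and brakes were higher with idelalisib and 3 higher with ibrutinib, among them the BCR adaptor PIK3AP1 (−0.42 ± 0.08).

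Downstream of PI3K, 4 of 26 genes of AKT and mTOR were higher with idelalisib and 6 higher with ibrutinib. RICTOR, the subunit that defines mTOR complex 2, was at 0.49 ± 0.06, and the sestrin genes SESN2 (−0.63 ± 0.08) and SESN1 (−0.45 ± 0.06) were lower with idelalisib. PDPK1, the kinase that activates AKT, had a log2 fold change of 1.03 ± 0.30 (adjusted p = 0.039), which rose to between 0.078 and 0.105 when any one library was left out. Among 28 BCR components, 4 were called in each direction. BLK, a SRC-family kinase of B cells, was at 235, 251 and 259 CPM with ibrutinib and 374, 397 and 377 CPM with idelalisib (0.62 ± 0.07, adjusted p = 0.00012). RASGRP3, which couples diacylglycerol to RAS, was at 0.47 ± 0.04. PRKCB, the protein kinase C isoform that relays BTK and phospholipase C to NF-κB, was at 313, 300 and 325 CPM with ibrutinib, close to the DMSO mean of 315 CPM, and at 207, 194 and 184.5 CPM with idelalisib (−0.68 ± 0.07, adjusted p = 6.8e-05). The NF-κB list had 2 of 25 higher with idelalisib and 3 higher with ibrutinib, among them NFKB1 (−0.31 ± 0.05) and the survival gene BCL2A1 (−0.56 ± 0.08).

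Immediate early and ERK feedback genes split. JUN was at 26.9, 28.1 and 27.4 CPM with ibrutinib, within the DMSO range of 26.7–32.5 CPM, and at 66.3, 72.0 and 73.0 CPM with idelalisib (1.36 ± 0.08, adjusted p = 2.3e-06). CD69, a surface marker of recent activation, was higher with idelalisib by 0.68 ± 0.10, but in both groups lower than with DMSO (mean of 50.4 CPM). EGR1 stood at 11.6, 12.5 and 11.5 CPM with ibrutinib and 5.92, 6.59 and 6.32 CPM with idelalisib, against a DMSO mean of 26.8 CPM (−0.92 ± 0.11). EGR3 had a similar value (−0.94 ± 0.08), so the EGR factors and JUN, all early targets of BCR signalling, moved apart. The ERK phosphatase gene DUSP4 was at 345, 334 and 376 CPM with ibrutinib and 593, 589 and 611 CPM with idelalisib (0.76 ± 0.06, adjusted p = 1.1e-05), whereas DUSP6 (−0.68 ± 0.14) and the ERK-driven factor ETV5 (−0.62 ± 0.09) were lower. SPRY1, a Sprouty inhibitor of receptor signalling, was at 0.29, 0.43 and 0.21 CPM with ibrutinib and at 0 in every idelalisib library, at least 3.47-fold lower against a floor of 3 counts per library. Counts as low as these rest on few reads.

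Kinase, cytokine and fate genes of B cells gave some of the strongest single rises. PIM1, a serine kinase that JAK-STAT and NF-κB signals switch on, was at 19.9, 18.1 and 25.7 CPM with ibrutinib and 55.1, 54.5 and 55.6 CPM with idelalisib, against a DMSO mean of 9.32 CPM (1.37 ± 0.14, adjusted p = 7.1e-05). Its relative PIM2 rose from 488, 496 and 539 CPM to 790, 799 and 788 CPM (0.64 ± 0.05). Of the JAK-STAT list 5 of 22 were higher with idelalisib and 4 higher with ibrutinib, including the STAT5 target CISH (−0.67 ± 0.16). The 5 became 3 without the first or the second ibrutinib or the second or the third idelalisib library. LTB, the lymphotoxin beta chain, rose from 4.56, 6.73 and 6.81 CPM to 19.5, 18.4 and 17.8 CPM (1.62 ± 0.17). CXCL8, the neutrophil chemokine, was at 0 in all ibrutinib libraries and at 0.705, 0.546 and 0.635 CPM with idelalisib, at least 8.30-fold higher against the same floor. The interferon-induced chemokine CXCL9 (−0.87 ± 0.19) and the cytokine LIF (−1.19 ± 0.14) were lower with idelalisib than with ibrutinib. Means with DMSO, ibrutinib and idelalisib were 3.80, 9.03 and 4.93 CPM for CXCL9 and 7.01, 7.02 and 3.05 CPM for LIF. Of 25 chemokines and cytokines 4 were higher with idelalisib and 7 higher with ibrutinib, the latter 3 with the 6 libraries alone.

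Receptors that place B cells in lymphoid tissue were redistributed. CXCR4, the receptor for the stromal chemokine CXCL12, was at 28.6, 27.7 and 32.0 CPM with ibrutinib and at 57.8, 60.8 and 61.3 CPM with idelalisib, against a DMSO mean of 27.3 CPM (1.03 ± 0.09, adjusted p = 4.3e-05). GPR183, the oxysterol receptor EBI2, went the other way from 29.4, 26.9 and 27.4 CPM to 12.3, 13.3 and 12.8 CPM (−1.12 ± 0.09), and so did CCR10 (−1.26 ± 0.12). CXCR5, the follicle homing receptor, was called at −1.79 ± 0.54 (adjusted p = 0.045) although its libraries overlapped, with 2.18, 8.29 and 6.68 CPM with ibrutinib and 0.705, 1.09 and 3.15 CPM with idelalisib. In all, 4 of 23 homing and adhesion genes were higher with idelalisib and 8 higher with ibrutinib. The 4 became 2 without the first ibrutinib or the second idelalisib library and 7 with DESeq2 or a mean CPM of 5 or more.

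Some antibody genes were higher with idelalisib than with ibrutinib. Of 16 immunoglobulin constant genes and J chain, 11 were tested, 5 were called higher with idelalisib and none higher with ibrutinib (median 0.43). The count was 2 without the third idelalisib library or with all 36 libraries in the fit, and 3 without the filter on low counts or without the second or the third ibrutinib or the second idelalisib library. IGHG3 was at 426, 419 and 438 CPM with ibrutinib and 551, 608 and 626 CPM with idelalisib (0.48 ± 0.06, adjusted p = 0.00023), and JCHAIN, which links polymeric antibodies, was at 0.43 ± 0.10. JCHAIN means were 698 CPM with DMSO, 477 CPM with ibrutinib and 641 CPM with idelalisib. Against DMSO, 4 of the 11 genes were called lower and 1 higher with ibrutinib (median −0.36). With idelalisib 1 was called lower and 2 higher (median 0.06). The shares of all genes called against DMSO in either direction were 19.7% and 33.3%. IGHG genes are near-identical copies, and the authors' counting may have divided their reads. The plasma cell list did not follow: 5 of 17 were higher with idelalisib, among them CD27 (0.89 ± 0.10) and the BAFF receptor gene TNFRSF13C (0.58 ± 0.06), and 2 were higher with ibrutinib, SDC1 (−0.45 ± 0.12) and FCRL5 (−1.45 ± 0.31). Of the B-cell identity factors 5 of 21 were higher with idelalisib, including the octamer coactivator gene POU2AF1 at 0.45 ± 0.04 and FOXP1 at 1.13 ± 0.17, and PAX5 was the one higher with ibrutinib (−0.22 ± 0.05).

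Antigen presentation genes had small fold changes. MHC class II genes had 6 of 16 higher with ibrutinib and none higher with idelalisib (median −0.20), including the invariant chain gene CD74 (−0.47 ± 0.12) and HLA-DMA (−0.45 ± 0.06), which edits the bound peptide. MHC class I genes had 3 of 15 higher with idelalisib, led by HLA-E (0.49 ± 0.07), and 2 higher with ibrutinib. HLA-E was at 942, 965 and 1036 CPM with ibrutinib and 1340.4, 1433 and 1365 CPM with idelalisib, all under the DMSO mean of 1562 CPM. Costimulatory and activation surface genes had 9 of 24 higher with idelalisib and 1 higher with ibrutinib, with TNFRSF9 (0.62 ± 0.09) and IL2RA (0.53 ± 0.11) among the former. Means with DMSO, ibrutinib and idelalisib were 11.3, 8.11 and 12.5 CPM for TNFRSF9 and 23.3, 14.9 and 21.6 CPM for IL2RA. Interferon-stimulated genes had 10 of 30 higher with ibrutinib and none higher with idelalisib, including IFIT1 (−0.74 ± 0.08) and IFIT3 (−0.51 ± 0.05). That count was 5 without the first ibrutinib or the first or the third idelalisib library, and 6 without the third ibrutinib or the second idelalisib library, without the filter or with the 6 libraries alone. Against DMSO, 13 of the 30 were called lower and 2 higher with ibrutinib, and 19 lower and 1 higher with idelalisib. IFIT3 means were 105 CPM with DMSO, 140 CPM with ibrutinib and 98.1 CPM with idelalisib. For survival, the BH3-only gene BMF rose from 98.4, 95.9 and 105 CPM to 142.1, 147 and 149.9 CPM (0.55 ± 0.05), and BCL2, its opponent, rose as well (0.43 ± 0.04). Lysosome and autophagy genes had 7 of 35 higher with idelalisib and 1 higher with ibrutinib, among the former the autophagy receptor gene SQSTM1 (0.34 ± 0.06). The 7 became 3 without the third idelalisib library, 4 without the first or the second ibrutinib library and 11 with DESeq2.

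Targets of the aryl hydrocarbon receptor (AHR), a sensor of aromatic compounds, rose where they were called. TIPARP, a repressor of the receptor, was at 115, 106 and 114 CPM with ibrutinib and 199, 197 and 190 CPM with idelalisib, where the DMSO mean was 179 CPM (0.81 ± 0.06, adjusted p = 6.7e-06). The cytochrome genes CYP1A2 (1.69 ± 0.25) and CYP1A1 (1.15 ± 0.31) were called from at most 4.54 CPM. In all 3 of 9 AHR targets were higher with idelalisib and none higher with ibrutinib. For the drug-conjugating enzymes that the study set out from, UGT2B17 was at 83.2, 80.4 and 78.8 CPM with ibrutinib and 84.9, 81.1 and 70.0 CPM with idelalisib (−0.04 ± 0.07, adjusted p = 0.80), and both lay above the DMSO range of 58.5–65.8 CPM. Of the 10 glucuronidation genes tested, 1 was called, UGP2 (−0.24 ± 0.06), which makes UDP-glucose.

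Several of the largest rises with idelalisib lay outside these lists. PRDM2, a histone methyltransferase gene, was at 100, 66.5 and 74.9 CPM with ibrutinib and 635, 594 and 648 CPM with idelalisib, with DMSO between them at 335, 358 and 352 CPM (2.96 ± 0.43, adjusted p = 0.00086). APOL1, an apolipoprotein that lyses trypanosomes, was at 17.4, 17.7 and 18.6 CPM with ibrutinib, 16.7–22.6 CPM with DMSO and 68.2, 69.0 and 65.6 CPM with idelalisib (1.92 ± 0.40, adjusted p = 0.0072). AMOTL2, a binding partner of the growth regulator YAP, rose from 0.786, 0.823 and 0.594 CPM to 5.60, 6.44 and 7.09 CPM (3.12 ± 0.35). TRIM29 (2.85 ± 0.13), KRT3 (1.91 ± 0.20), REG4 (1.82 ± 0.24), WHRN (1.82 ± 0.18) and CAV1 (1.78 ± 0.20), genes better known from epithelia, hair cells or the caveolae of other cell types, rose to between 4.93 and 20.6 CPM. SYPL2 (2.01 ± 0.15) rose to 7.90–8.91 CPM and ANXA8 (3.04 ± 0.56) reached no more than 1.94 CPM. CXCL8, AMOTL2 and ANXA8 met the minimum average level for naming through EHEB libraries treated with fludarabine, which take part in the fit. CERKL (1.98 ± 0.50, adjusted p = 0.021) varied within the DMSO group from 4.71 to 26.6 CPM, as widely as between the drugs.

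The other lines show how far the EHEB pattern extends. In JVM2 3282 of 17508 genes were called (18.7%) and in MEC1 2694 of 17516 (15.4%). Among the 15181 genes tested in all, EHEB had 1034 called higher with idelalisib and 1545 called higher with ibrutinib. Of the former, JVM2 called 424 in the same direction (41.0% of the EHEB genes and 31.7% of the JVM2 genes) and 32 in the opposite one. MEC1 called 115 in the same direction (11.1% and 11.3%) and 82 in the opposite one. Of the genes higher with ibrutinib, JVM2 called 773 in the same direction (50.0% and 43.8%) and 26 in the opposite one, and MEC1 called 399 (25.8% and 24.7%) and 157. In all 3 lines 63 genes were higher with idelalisib and 225 higher with ibrutinib. Chosen by the size of the change in the line where it was smallest, the genes named were JUN (1.36 in EHEB, 1.16 in JVM2 and 0.67 in MEC1), CD69, the Notch target HEY1, the TGF-beta effector gene SMAD3, RARRES3, ADTRP, RGS20 and EIF2AK3 among the former, and CCND2 (−0.70, −0.64 and −1.09) and the helicase gene MCM6 (−0.65, −0.98 and −0.56) among the latter.

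**Figure D4:**
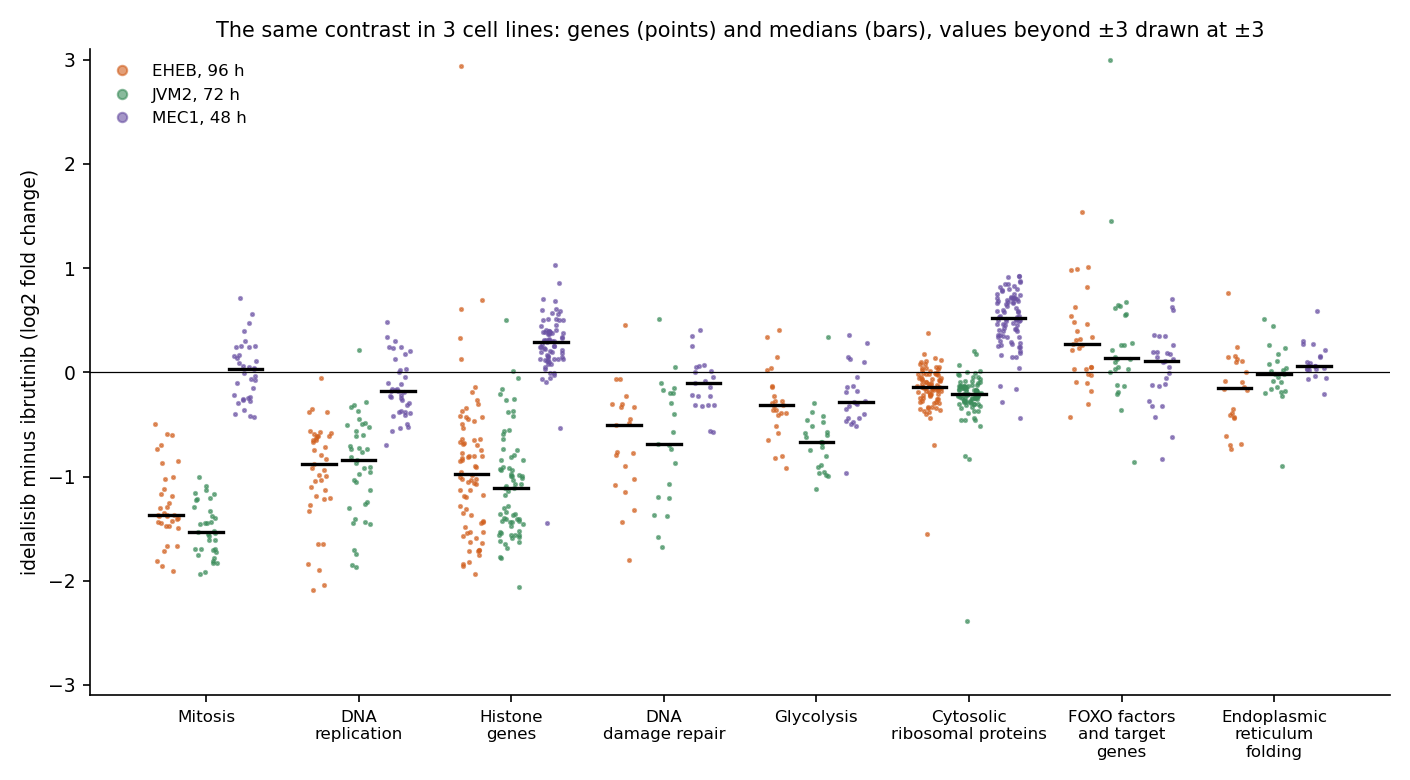
Log2 fold change, idelalisib minus ibrutinib, of single genes (points) and the median (black bar) of 8 gene lists in EHEB (96 h), JVM2 (72 h) and MEC1 (48 h). EHEB and JVM2 lie well below 0 for mitosis, replication and histone genes. The MEC1 median lies near 0 for mitosis, less far below 0 for replication and above 0 for histone genes. The ribosomal protein median lies above 0 only in MEC1.

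Cell cycle genes tell the lines apart. Mitotic genes had a median of −1.53 in JVM2, with 35 of 35 called higher with ibrutinib, and of 0.03 in MEC1, with 6 called higher with ibrutinib and 4 higher with idelalisib. Replication medians were −0.84 in JVM2 and −0.18 in MEC1. In JVM2 32 of 39 replication genes were called higher with ibrutinib. In MEC1 14 of 39 were called higher with ibrutinib and 3 higher with idelalisib, where 15.4% of all genes were called in either direction. Histone medians were −1.11 in JVM2 and 0.30 in MEC1. In JVM2 58 of 71 histone genes were called higher with ibrutinib, whereas in MEC1 24 of 74 were called higher with idelalisib and 0 higher with ibrutinib. The line by drug interaction, tested on the 18 libraries of both drugs, was called for EHEB against the mean of the other lines in 1034 of 19266 genes (5.37%). Against MEC1 alone, the EHEB value was lower for 32 of 35 mitotic, 23 of 39 replication and 57 of 74 histone genes, where 12.9% of all genes were called in either direction. Against JVM2 alone it was lower for 0 mitotic, 1 replication and 0 histone genes and higher for 4, 0 and 4, where 2.19% of all genes were called. CDC20, for example, was at −1.70 in JVM2 and −0.25 in MEC1 (EHEB minus their mean −0.87, adjusted p = 0.0028). The MEC1 libraries also differed in ribosomal protein genes, with 65 called higher with idelalisib there, 0 in JVM2 and 1 in EHEB. Glycolysis was lower with idelalisib in JVM2 (median −0.67) and in MEC1 (−0.29), so for this list the 3 medians shared a sign. Line, p53 status (mutated in MEC1) and exposure time change together and cannot be told apart.

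Some EHEB values differed from both other lines by the interaction test. APOL1 was at 0.05 in MEC1 and −0.15 in JVM2, so the EHEB value exceeded their mean by 1.98 (adjusted p = 9.9e-08). PIM1 exceeded it by 1.12 and PIM2 by 0.70. HSPA5, at 0.02 in MEC1 and −0.02 in JVM2, lay under it by −0.68, and RPL22L1 by −1.47. Each of these was also called against MEC1 and against JVM2 taken singly. PIK3CA and PIK3CD exceeded the mean by 0.46 and 0.51 (adjusted p = 0.0013 and 0.027), but were called against MEC1 only: against JVM2 the differences were 0.21 and 0.32 (adjusted p = 0.19 and 0.28), and PIK3CA was called in JVM2 in the same direction (0.36). LTB exceeded the mean by 1.43 and was likewise not called against JVM2 (adjusted p = 0.066). For UGT2B17 the EHEB value of −0.04 stood against 0.40 in MEC1 and 0.35 in JVM2, a difference from the mean of −0.41 (adjusted p = 0.014) that was not called against JVM2 alone (adjusted p = 0.064). By the naming rule, 5 genes were called in EHEB opposite to both other lines: TMEM154, ALOX5AP, which serves leukotriene synthesis, and TNFSF4, the OX40 ligand, were higher with ibrutinib in EHEB only, and the receptor kinase gene GRK2 and the ubiquitin ligase gene RNF168 were higher with idelalisib in EHEB only. For TNFSF4 the values were −0.26 in EHEB, 0.92 in MEC1 and 0.39 in JVM2. The EHEB calls of ALOX5AP, GRK2, TNFSF4 and RNF168 were each lost when one of several libraries was left out, and that of TMEM154 was not.

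Over 8 alternative settings, between 31 and 34 mitotic genes, between 35 and 38 replication genes and between 52 and 60 histone genes were called higher with ibrutinib, where the lowest mitotic count was out of 32 genes tested with a mean CPM of 5 or more. With any single library left out the counts were at least 30, 36 and 52. For the FOXO list, between 8 and 10 genes were called higher with idelalisib over the alternatives and between 7 and 9 with a library left out.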

How the data were processed

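RNA-seq of rRNA-depleted total RNA was analysed for 36 libraries of 3 cell lines given DMSO, fludarabine, ibrutinib or idelalisib. The authors trimmed reads with Trimmomatic 0.36, aligned them with HISAT2 2.1 and deposited estimated counts per gene made with StringTie 1.3.4 on an Ensembl GRCh38 annotation, and used edgeR 3.22.5. Whether counting used strand is not given in the sources used here. Estimated counts were used as deposited, except that a row without a gene symbol, holding 0.00384% of counts, was dropped.

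Groups came from the labels. Counts of the 12 EHEB libraries were filtered (filterByExpr, minimum count 10, minimum total 15), TMM-normalised and tested with the quasi-likelihood test of edgeR 4.0.16 in R 4.3.3, with Benjamini-Hochberg adjustment over all genes tested and a threshold of 0.05. The biological coefficient of variation was 0.197. The same contrast was fitted in MEC1 and JVM2, and differences between lines as an interaction. Alternatives were DESeq2 1.42.0, limma-voom 3.58.1, library size scaling, no filter, a mean CPM of 5 or more, the 6 libraries alone, all 36 libraries, each library left out and, chosen after seeing the data, counts divided by 8/3, since low values fell on steps of about that size. The fits were tested on simulated data.

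Genes named were the drug targets and UGT2B17, the 12 largest called fold changes in each direction (average log2 CPM of at least 2, no overlap of libraries, protein coding), up to 5 called members of each list by size and up to 10 genes called alike, or opposite, across lines. Exceptions are said where they occur. Some genes that met this rule are not reported here. The lists and comparisons were chosen with earlier results of these data known. Promoter sequences were RefSeq (GRCh38.p14). Intervals of depth cover counting error only.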

Additional observations from a re-analysis of the deposited data

Results flagged for a closer look

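Of the 148 genes named, 70 had a line by drug interaction called by edgeR (EHEB minus the mean of MEC1 and JVM2), and 22 of these differed by at least 2-fold, which is what picked them out here. Taken singly, 20 of the 22 were called against MEC1 and 9 against JVM2. The 8 called against both were APOL1, CDC45, GPR183, HIST1H4PS1, PIM1, RPL22L1, SPRY1 and TMEM154. In 15 the EHEB value was the lower. Cell cycle and histone genes made up the largest set, with log2 differences of −1.33 for CDC45, −1.17 for CDC6, −1.07 for DLGAP5, −1.25 for HIST1H3G, −1.20 for HIST1H2BL, −1.16 for HIST1H1B and −1.09 for HIST1H3B. Signalling and receptor genes followed, with −2.07 for EGR1, −1.04 for EGR3, −1.05 for GPR183, −1.01 for TMEM154, −1.93 for FCRL5 and −3.44 for CXCL9. For CXCL9 the interaction was called against neither line singly (adjusted p = 0.21 against MEC1 and 0.065 against JVM2). Its JVM2 value of 4.75 ± 2.04 was itself not called. RPL22L1 stood at −1.47. SPRY1 stood at −6.39, a fitted value that depends on the prior count because every EHEB idelalisib library was at 0.

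In 7 the EHEB value was the higher. These were APOL1 at 1.98, LTB at 1.43, CXCR4 at 1.39, CAV1 at 1.23, PIM1 at 1.12, WHRN at 1.01 and the low-count pseudogene HIST1H4PS1 at 2.64. For CXCR4 the interaction was called against JVM2 only. Its MEC1 value of 0.82 was itself called, and its JVM2 value of −1.56 ± 0.81 was not. For WHRN the interaction was called against MEC1 only, and its JVM2 value of 1.58 was itself called.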

How the results depend on the processing

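The count of genes called between the drugs in EHEB was 2815, and ranged from 2050 with the 6 libraries alone to 3473 with DESeq2, and from 1976 to 2421 with a library left out. The count with at least a 2-fold difference was 428, fell to 215 with a mean CPM of 5 or more, where fewer genes were tested, and was 385 to 417 with a library left out. The count of differences between lines moved most, from 1034 to 2017 with DESeq2, 1636 with a mean CPM of 5 or more and 625 without a filter, and to 631–938 with a library left out, lowest without the first ibrutinib library (631) and the third idelalisib library (675). Apart from the changes in genes tested, the cause was not tested.

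Of 137 named genes called, 127 could be tested under all 8 alternatives, and 115 of these kept their call in each. With any single library left out, 120 of the 137 kept it. The calls lost with a library left out were those of ADTRP, ALOX5AP, CD74, CERKL, CISH, CXCR5, CYP1A1, GRK2, HIST1H4PS1, PAX5, PDPK1, RGS20, RNF168, SDC1, TNFSF4, UGP2 and VEGFA. GINS4 and SLC2A1 became called without the second idelalisib library. With single libraries left out, signs changed for 3 genes that were never called: PIK3CB ranged from −0.0095 to 0.089 (lowest without the second ibrutinib library), FOXO3 from −0.080 to 0.66 (lowest without the third ibrutinib library) and UGT2B17 from −0.090 to 0.043 (highest without the third idelalisib library). No paired analysis was possible because each library number is unique and no number is shared between the groups compared. Genes under about 1 CPM rest on few reads.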
